A study of Mus musculus with 21 samples.

Results

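The genes described here are 9 members of the angiotensin system and its cell-surface peptidases in mouse embryonic fibroblasts (MEFs): the angiotensin receptors Agtr2 and Agtr1a, the hormone precursor gene Agt, and the peptidase genes Ace, Enpep, Anpep, Mme, Lnpep and Ece1. They were found by gene symbol among the 24454 genes of the expression table, and 8 of the 9 passed the filter on low counts that left 13719 genes to be tested; Agt did not. They were chosen by their levels in Rtel1 F/F cells, where several were lower after Cre or TMPyP4. The values of those 3 groups (Rtel1 F/F +GFP, +Cre and +TMPyP4) are therefore given as a description without a test, and tests of the members were kept to the other 2 cell lines.

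Angiotensinogen, the product of Agt, is cut by renin and then by angiotensin-converting enzyme (Ace) to angiotensin II, which acts on the AT1 receptor (Agtr1a and its paralog Agtr1b in the mouse) and on the AT2 receptor (Agtr2). The AT2 receptor is known for high levels in fetal mesenchyme and lower levels in most adult tissues. Peptidases anchored in the plasma membrane then trim the peptide: aminopeptidase A (Enpep) takes angiotensin II to angiotensin III, aminopeptidase N (Anpep, CD13) takes angiotensin III to angiotensin IV, and Lnpep binds angiotensin IV. Neprilysin (Mme, CD10) cuts many small peptides, angiotensins and endothelins among them, and Ece1 releases mature endothelin from its precursor.

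RNA sequencing covered 21 libraries, 3 in each of 7 groups. Rtel1 F/F MEFs, in which both Rtel1 alleles are floxed, received an adenovirus for GFP (+GFP) or for Cre (+Cre) and were collected 96 h after infection, or received the GFP virus and then 10 uM TMPyP4, a ligand that stabilizes G-quadruplex DNA, for 48 h (+TMPyP4). A line made from Rtel1 F/F MEFs by transduction with RTEL1 C1252A/C1255A, a mutant form of the helicase, was studied +GFP and +Cre, as were Terf1 F/F MEFs (labelled Trf1), in which the floxed gene encodes a telomere-binding protein. All 7 groups carried an adenovirus and floxed alleles, and each genotype was 1 cell line, so line and genotype cannot be told apart. The labels call the 3 libraries of a group biological replicates without saying whether they came from separate animals or cultures, and p-values measure the spread between such libraries.

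Total counts per library ran from 32069888 to 51938593 (median 43013208), at which 3 counts equal 0.0588 to 0.0951 CPM (counts scaled to library size by TMM), taken below as the limit of detection. CPM values compare 1 gene between libraries, whereas levels of different genes are compared in TPM, which also allow for gene length. Rtel1 averaged 61.8 ± 3.83 CPM in Rtel1 F/F +GFP and 29.5 ± 2.56 CPM in +Cre (SD, n = 3), and 332 ± 4.8 and 265 ± 16.3 CPM in the transduced line. Terf1 fell from 29.3 ± 1.21 CPM to 0.0608 ± 0.0434 CPM in Terf1 F/F cells (SD, n = 3). As to cell identity, Col1a1, Col1a2, Vim and Pdgfrb were abundant in every library, but Thy1 was at 0.0200 to 0.490 CPM in the 15 libraries of the Rtel1 F/F and RTEL1 C1252A/C1255A lines against 222 to 269 CPM in Terf1 F/F cells, and Lum was at most 0.111 CPM in the former. The leukocyte genes Ptprc and Adgre1 were at or below 3 counts in every library. Csf1r was above 3 counts in every library, with group means of 0.303 to 1.44 CPM, and Itgam in the RTEL1 C1252A/C1255A +Cre libraries. Of the neural genes, Sox2 averaged 17.0 to 25.0 CPM in the groups of the Rtel1 lines and 3.76 and 3.44 CPM in the Terf1 F/F groups. Map2 averaged 4.05 to 7.94 CPM in the former and 90.8 and 107 CPM in the latter. Group means of Tubb3 were 8.32 to 20.1 CPM, and those of Gfap at most 0.0888 CPM. The 3 Rtel1 F/F +GFP libraries stood apart from the other libraries of the Rtel1 lines. On the first principal component of log2 CPM they were at -36.7 to -27.5 and the others at -61.5 to -45.6. Replicate 1 of Rtel1 F/F +GFP gave that group's lowest level of Agtr2, Agtr1a, Enpep, Anpep and Mme.

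The stretches of DNA just before the start sites are shown for Agtr2, Enpep and Mme, the members with the widest range of levels, and for Anpep, because the study concerned G-quadruplex structures in DNA. Sequences are from RefSeq on GRCm38.p6, run 5′ to 3′ on the strand of the gene from 250 bases before the RefSeq start site to 9 bases after its first base, and have capitals where a searched motif matched. The motifs were 4 runs of GGG with 1 to 7 bases between runs (a common pattern for a possible G-quadruplex), TATAAA and TATATA, each on both strands; where TATAAA lay on the opposite strand it reads TTTATA.
Agtr2, chrX:21484374-21484633, plus strand: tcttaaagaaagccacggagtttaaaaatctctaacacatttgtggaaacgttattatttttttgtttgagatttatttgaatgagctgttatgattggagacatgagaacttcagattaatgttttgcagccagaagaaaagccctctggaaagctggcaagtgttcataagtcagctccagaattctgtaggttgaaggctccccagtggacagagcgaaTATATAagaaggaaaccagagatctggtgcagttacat
Enpep, chr3:129332740-129332999, minus strand: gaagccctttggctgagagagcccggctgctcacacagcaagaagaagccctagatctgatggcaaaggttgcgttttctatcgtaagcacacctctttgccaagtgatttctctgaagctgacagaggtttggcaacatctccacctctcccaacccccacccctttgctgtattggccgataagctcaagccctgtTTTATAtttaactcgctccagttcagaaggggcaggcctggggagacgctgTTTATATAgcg
Anpep, chr7:79848201-79848460, minus strand: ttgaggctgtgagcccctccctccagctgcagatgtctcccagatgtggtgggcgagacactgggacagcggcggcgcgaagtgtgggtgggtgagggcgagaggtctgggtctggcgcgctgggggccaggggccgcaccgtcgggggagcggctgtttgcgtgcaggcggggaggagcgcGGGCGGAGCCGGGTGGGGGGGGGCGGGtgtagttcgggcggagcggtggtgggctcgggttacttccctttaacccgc
Mme, first of 3 start sites, chr3:63294961-63295220, plus strand: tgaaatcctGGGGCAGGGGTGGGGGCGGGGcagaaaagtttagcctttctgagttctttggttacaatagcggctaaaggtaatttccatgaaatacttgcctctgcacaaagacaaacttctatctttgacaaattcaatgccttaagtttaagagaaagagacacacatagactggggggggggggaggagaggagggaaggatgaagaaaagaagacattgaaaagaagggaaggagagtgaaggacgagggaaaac

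The Agtr2 stretch was poor in G and C (38.5%) and held a TATATA at positions -28 to -23 and no G-run match (the first transcribed base is position 0). The Enpep stretch also held no G-run match; its TATATA covered positions 1 to 6 of the RefSeq model, and the GENCODE M21 model starts 29 bases further downstream. The G-run motif was present before the RefSeq start of Anpep (positions -68 to -42, in a stretch of 71.9% G and C) and before the first RefSeq start of Mme (-241 to -221). The GENCODE M21 models begin upstream of these RefSeq starts for Agtr2 (chrX:21484544), Anpep (chr7:79861059) and Mme (chr3:63241537). All positions are counted from the RefSeq starts, and the stretches before the GENCODE starts of Anpep and Mme were not searched. Over all 14 windows of 300 bases that RefSeq gave for 8 members, 4 windows of 3 members (Ace, Anpep and Mme) held it, all on the strand of the gene, and the windows of Agtr2, Enpep, Agt, Lnpep and Ece1 held no G-run match. Among 32851 promoter windows of the same length, 10.5% held the motif on the strand of the gene, 9.35% on the opposite strand and 18.6% on either. TATAAA and TATATA, which overlap one another in part, were in 13.6% and 5.67% of windows on either strand. A match describes letters and is not evidence of a folded structure.

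**Figure D1:**
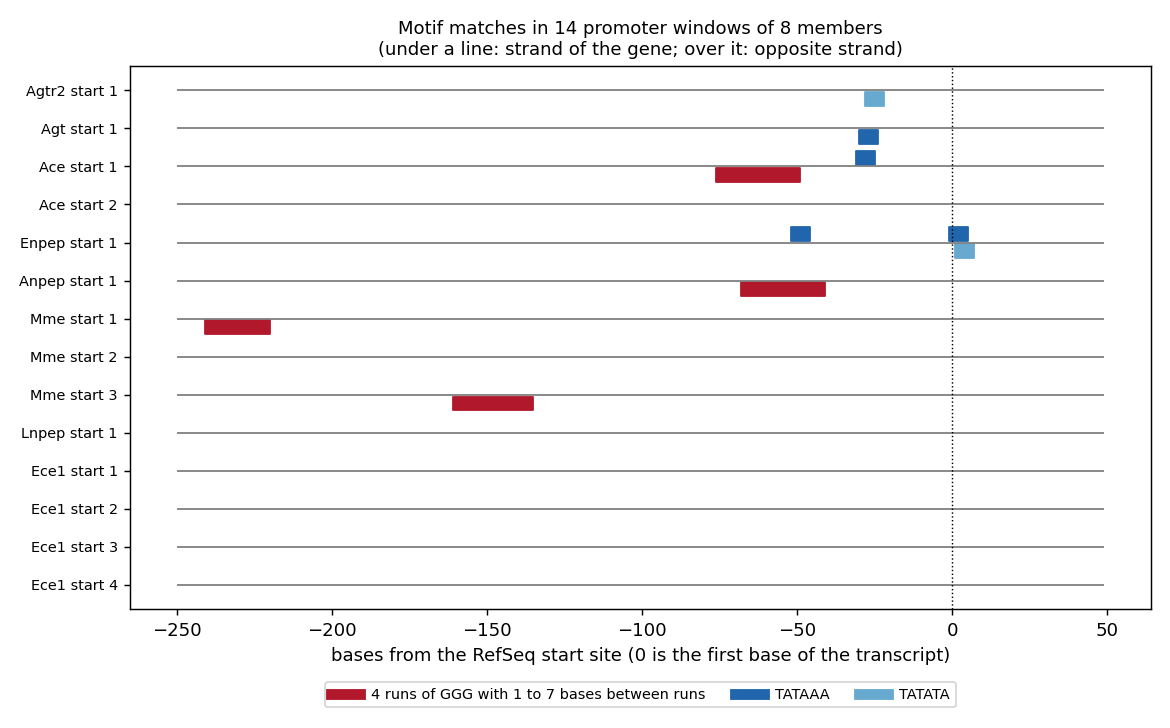
Motif matches (boxes) in 14 promoter windows of 8 members, by distance in bases from the RefSeq start site, with the strand of the gene under each line and the opposite strand over it. The 4 G-run matches lie in windows of Ace, Anpep and Mme.

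Agtr2 lies at chrX:21484624-21488833 (GRCm38), with its whole reading frame of 363 codons in 1 exon, and showed the widest relative range of the receptors. The CPM of Agtr2 was 6.63, 13.9 and 12.4 in Rtel1 F/F +GFP, 0.0932, 0.124 and 0.0546 in +Cre and 0.761, 0.699 and 0.693 in +TMPyP4. The 3 groups did not overlap, with +Cre at the limit of detection (4, 5 and 2 counts) and +TMPyP4 in between. Summed over libraries, 1592 counts in +GFP stood against 11 in +Cre, a depth-adjusted ratio of 121 (exact 95% interval 67.4 to 243, counting error only), and against 82 in +TMPyP4, a ratio of 15.6 (12.5 to 19.7). On the log2 scale of the fit the differences from +GFP were -6.86 ± 0.33 for +Cre and -3.94 ± 0.25 for +TMPyP4 (± SE), and both comparisons share the same 3 +GFP libraries. Of the 13719 genes tested, 11 had a lower log2 fold change than Agtr2 in the Cre comparison and 45 in the TMPyP4 comparison. Agtr2 was chosen by its levels in these groups, so nothing is read from its rank.

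The other lines placed Agtr2 at opposite ends of the scale. In Terf1 F/F cells the control virus left it at 45.3, 52.3 and 53.4 CPM and Cre at 42.3, 48.9 and 35.3, above every other library. In the RTEL1 C1252A/C1255A line its CPM was 0.711, 0.597 and 0.868 (+GFP) and 0.412, 0.344 and 0.282 (+Cre). Thus the transduced line already stood at the level of Rtel1 F/F +TMPyP4 with the control virus, and the 2 groups overlapped. Ordered by mean, Terf1 F/F +GFP (50.4) and +Cre (42.2) overlapped and were followed by Rtel1 F/F +GFP (11), then by RTEL1 C1252A/C1255A +GFP and Rtel1 F/F +TMPyP4 (0.725 and 0.717), RTEL1 C1252A/C1255A +Cre (0.346) and Rtel1 F/F +Cre (0.0906 CPM).

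Agtr1a (chr13:30336356-30382867, 359 codons in 1 coding exon), the main AT1 receptor gene of the mouse, was low in all libraries. In Rtel1 F/F +GFP it was 1.00, 2.20 and 1.9 CPM, in +Cre 0.303, 0.248 and 0.218 CPM, and in +TMPyP4 0.349, 0.193 and 0.287 CPM. The +GFP libraries lay above all others of the series, in which Agtr1a stayed between 0.0814 and 0.349 CPM, a range of 3 to 15 counts. The log2 differences from +GFP were -2.71 ± 0.33 for +Cre and -2.64 ± 0.33 for +TMPyP4 (± SE). Unlike Agtr2, Agtr1a was not high in Terf1 F/F cells, where the +GFP libraries had 0.162, 0.345 and 0.174 CPM and the +Cre libraries 0.132, 0.183 and 0.107. Agtr1b, its close paralog, had 8 counts in the whole series, although RSEM divides reads that fit both.

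Neither the precursor nor the converting enzyme was made in quantity. Agt had 3 counts in all 21 libraries together and never more than 1 in a library. Ace (chr11:105967948-105989964) had 5, 7 and 4 counts in Rtel1 F/F +GFP, 2, 1 and 0 in +Cre and 1, 1 and 0 in +TMPyP4. These counts leave the ratio of +GFP to +Cre at 4.45 with an exact 95% interval of 1.27 to 23.9 (counting error only). In Terf1 F/F cells Ace had 18, 20 and 19 counts with GFP and 27, 12 and 12 with Cre, or 0.417 to 0.471 and 0.275 to 0.592 CPM. An antisense gene, Gm11651, overlaps Ace on the opposite strand, and the counting used strand.

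Enpep (chr3:129269177-129332749, aminopeptidase A) had the highest level in Rtel1 F/F +GFP and the widest spread there. The 3 +GFP libraries had 10.0, 47.7 and 35 CPM, the +Cre libraries 0.117, 0.397 and 0.437 CPM, and the +TMPyP4 libraries 1.24, 0.699 and 0.860 CPM. Every +GFP library was above every treated one, and +Cre lay below +TMPyP4 without overlap. The log2 difference was -6.62 ± 0.55 for +Cre and -5.07 ± 0.49 for +TMPyP4 (± SE). Leaving out +GFP replicate 1 moved the Cre value to -7.04, and leaving out +GFP replicate 2 moved it to -6.15. The RTEL1 C1252A/C1255A line was near the limit of detection with either virus (+GFP 0.108, 0.326 and 0.228 CPM, +Cre 0.274, 0.245 and 0.141 CPM). Terf1 F/F cells reached 8.33, 8.48 and 9.92 CPM (+GFP) and 8.34, 7.56 and 5.73 CPM (+Cre), below every Rtel1 F/F +GFP library, so the order of the lines differed from that of Agtr2.

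Anpep (chr7:79821803-79848210, aminopeptidase N) moved in the same direction over a narrower range. Its levels were 12.1, 17.3 and 15.3 CPM in Rtel1 F/F +GFP, 5.45, 5.66 and 5.90 CPM in +Cre and 8.40, 7.80 and 7.64 CPM in +TMPyP4. The 3 groups did not overlap, with log2 differences from +GFP of -1.40 ± 0.13 for +Cre and -0.91 ± 0.13 for +TMPyP4 (± SE). Lnpep (chr17:17527723-17624489), the third aminopeptidase, did not separate the groups, at 95, 89.0 and 68.0 CPM in +GFP, 80.5, 86.4 and 76.2 CPM in +Cre and 75.1, 77.6 and 72.2 CPM in +TMPyP4. Its log2 differences were -0.05 ± 0.10 and -0.16 ± 0.10 (± SE), and the Cre value changed sign, to 0.05, without +GFP replicate 1.

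Mme (chr3:63295211-63383713, neprilysin) was the most abundant member in Terf1 F/F cells. It was 85.1, 132 and 110 CPM in Rtel1 F/F +GFP, 5.80, 5.19 and 5.21 CPM in +Cre and 18.1, 17.6 and 17.2 CPM in +TMPyP4. As for Agtr2, the groups did not overlap and +TMPyP4 lay in between. The log2 differences from +GFP were -4.34 ± 0.16 for +Cre and -2.63 ± 0.15 for +TMPyP4 (± SE). In Terf1 F/F cells Mme reached 324, 328 and 379 CPM (+GFP) and 349, 343 and 240 CPM (+Cre). Ece1 (chr4:137862237-137965229), a metallopeptidase of the same family as Mme, changed little by comparison, with 144, 164 and 155 CPM in +GFP, 112, 83.7 and 102 CPM in +Cre and 131, 107 and 115 CPM in +TMPyP4. Its +GFP libraries were nevertheless above all 6 others, with log2 differences of -0.64 ± 0.13 and -0.39 ± 0.13 (± SE).

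**Figure D2:**
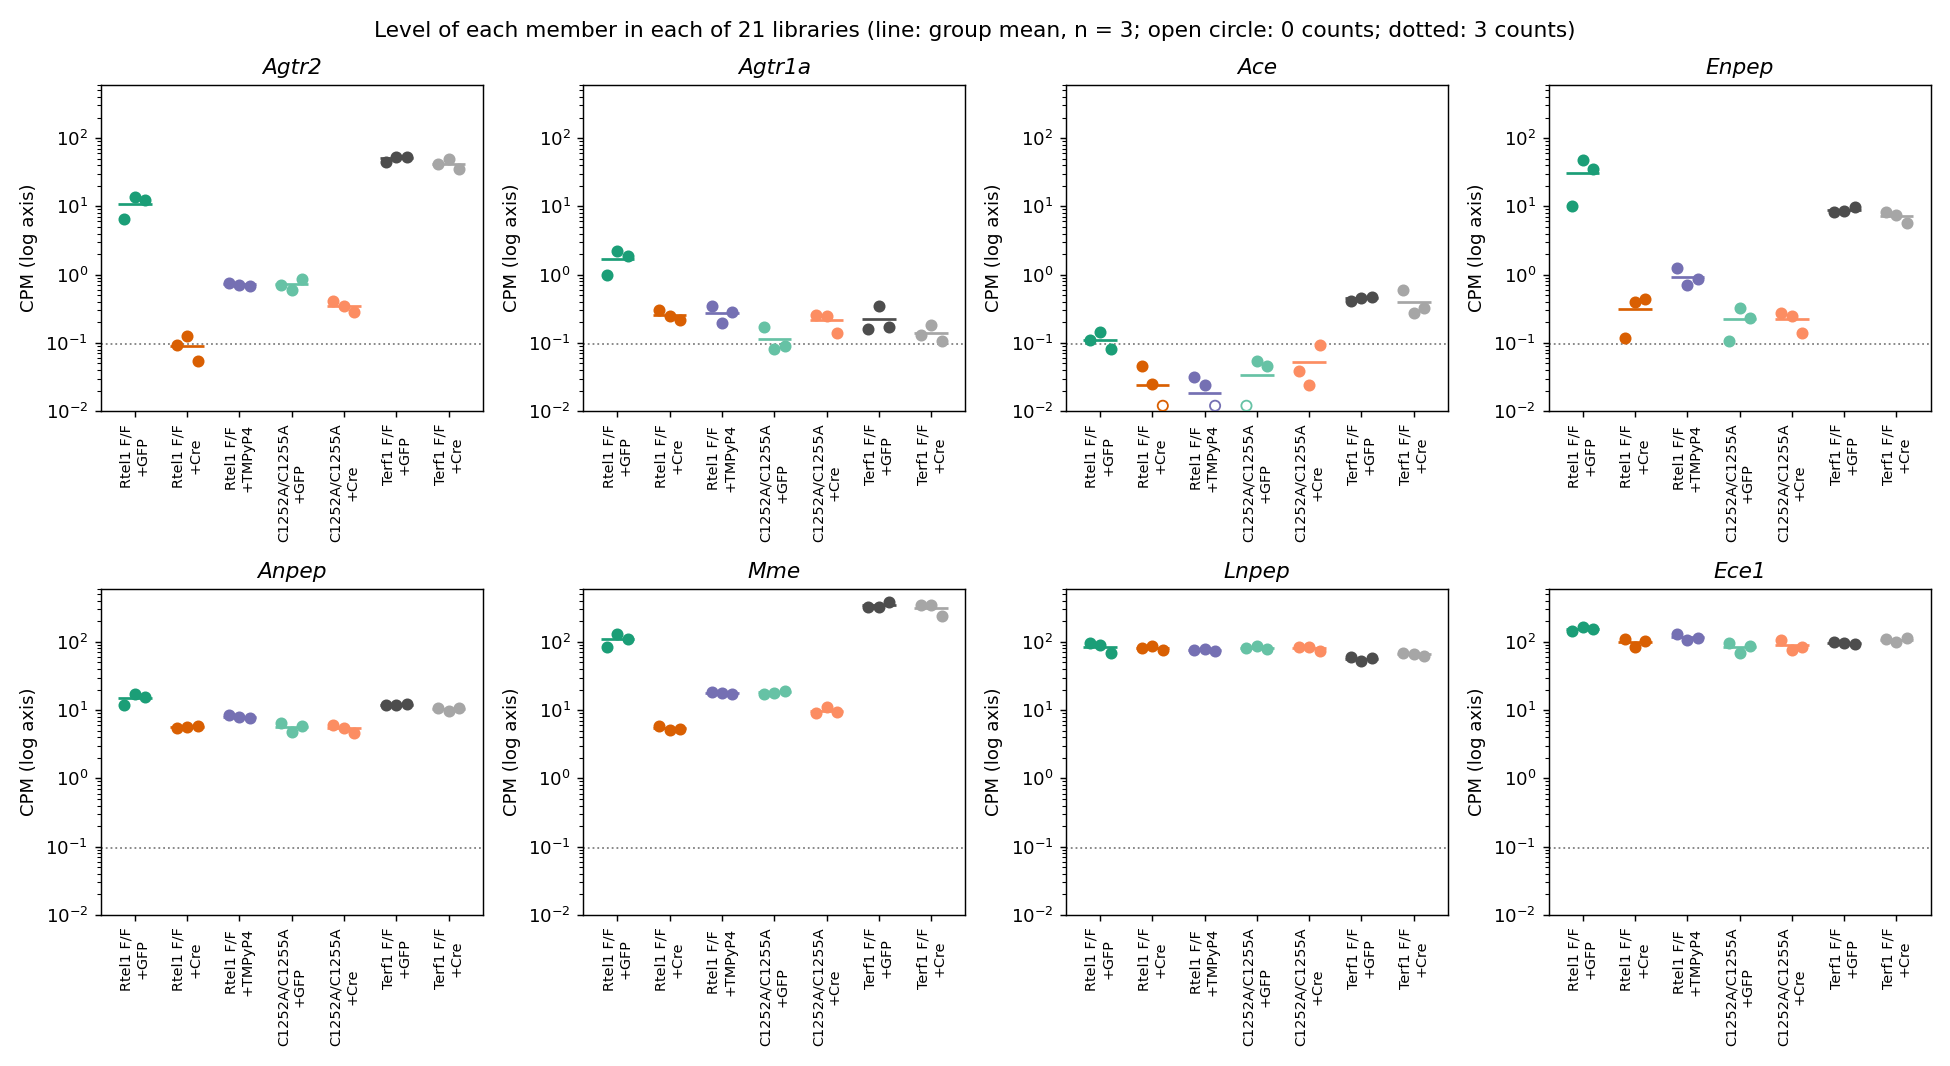
CPM on a log axis of 8 members in each of the 21 libraries, by group, with a line at each group mean (n = 3), open circles for libraries with 0 counts and a dotted line at the highest limit of 3 counts (0.0951 CPM). Agtr2, Enpep and Mme span the widest range and fall to their lowest levels in Rtel1 F/F +Cre or in the RTEL1 C1252A/C1255A line, and Lnpep and Ece1 stay between 52.2 and 164 CPM.

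Counted over the 8 members that passed the filter, 7 had all +Cre libraries below all +GFP libraries, where 32.1% of all genes tested did so, and 7 had all +TMPyP4 libraries below all +GFP libraries, where 28.5% of all genes did. The exception was Lnpep in both. The same counts chose the members, so nothing is read from them. For reference, 43.0% of genes passed edgeR's quasi-likelihood test at an adjusted p of at most 0.01 in the Cre comparison and 30.0% in the TMPyP4 comparison. The median log2 difference of the 8 members was -2.37 for +Cre and -2.56 for +TMPyP4, against -0.03 and -0.01 over all genes tested. Between the treated groups, 4 members (Agtr2, Enpep, Anpep and Mme) had all +Cre libraries below all +TMPyP4 libraries, as 20.2% of all genes did. The summed level of 9 fibroblast genes moved with the members, at 12821 to 13738 CPM in +GFP, 4161 to 6508 CPM in +Cre and 6231 to 9293 CPM in +TMPyP4. Col1a1, Col1a2, Col3a1, Pdgfra and Pdgfrb were lower in both treated groups without overlap, Vim averaged 1382, 1610 and 1605 CPM with overlap, and Dcn was at 14.2, 39.3 and 7.74 CPM, higher with Cre and lower with TMPyP4. Lum and Thy1 were at or near the limit of detection. The sum of 6 smooth muscle and pericyte genes moved the other way, at 751 to 873 CPM in +GFP, 956 to 1162 CPM in +Cre and 1794 to 1858 CPM in +TMPyP4. Acta2 averaged 439, 516 and 1176 CPM and Tagln 253, 518 and 581 CPM, and Cnn1 was also higher in both treated groups. Cspg4 was lower in both without overlap, at 102, 33.3 and 49.8 CPM, and Myh11 and Rgs5 were near the limit of detection. The part of these marker levels in the members' differences was not tested. In such whole-culture libraries, fewer cells that express a gene and less RNA per cell cannot be told apart.

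**Figure D3:**
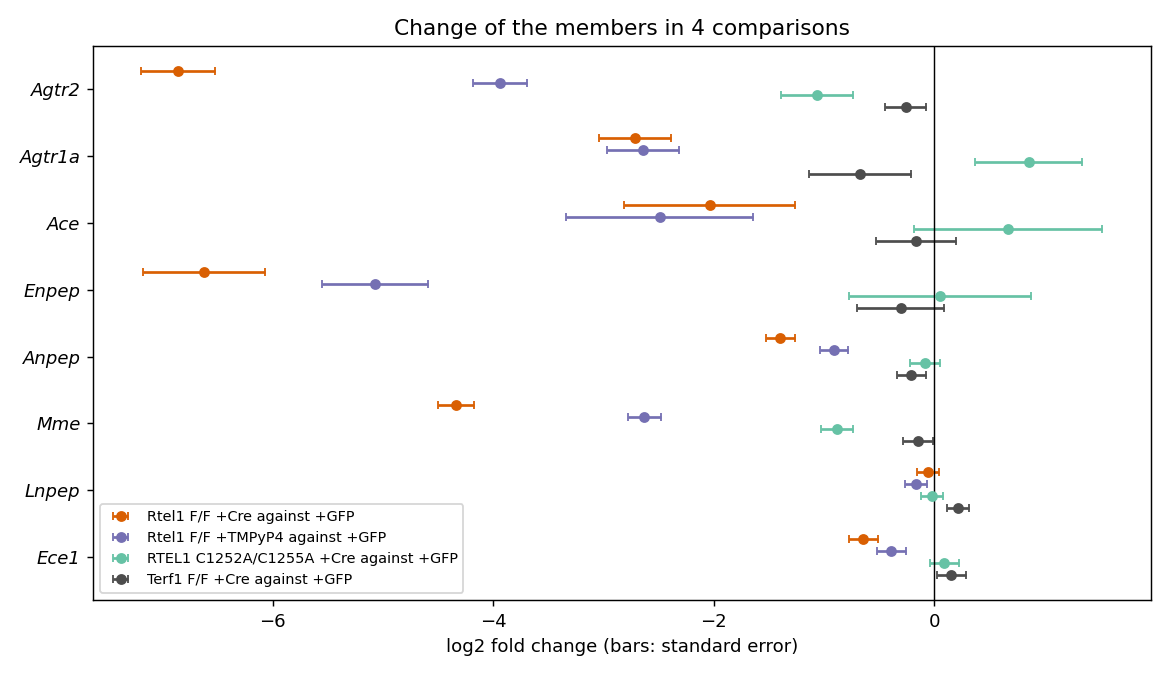
Log2 fold change with its standard error for 8 members in 4 comparisons, each of a treated group with the +GFP group of its line. The 8 members lie between -6.86 and -0.05 in Rtel1 F/F cells, whose levels chose them, and between -1.06 and 0.86 in the other lines. The Rtel1 F/F values were not tested against those of the other lines.

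On the TPM scale, which compares genes, Ece1 led in Rtel1 F/F +GFP (66.4 ± 5.81 TPM), followed by Mme (38.4 ± 9.26), Lnpep (33.5 ± 6.11), Enpep (15.4 ± 9.81), Anpep (9.16 ± 1.83), Agtr2 (8.12 ± 2.96) and Agtr1a (1.61 ± 0.62 TPM; SD, n = 3). Neighbours in this order from Mme to Lnpep and from Enpep to Agtr2 differed by less than their spread. In +Cre, Ece1 (35.9 ± 4.17) and Lnpep (27.4 ± 3.17 TPM) were the members left above 3 TPM, with Anpep at 2.94 ± 0.142 and Mme at 1.60 ± 0.125 TPM. Agtr2 came next after Mme and Ece1 in Terf1 F/F +GFP, at 36.5 ± 2.77 TPM beside 119 ± 11.8 for Mme and 40.6 ± 2.5 for Ece1. Of the receptors, Agtr2 was above Agtr1a by 8.12 to 1.61 TPM in Rtel1 F/F +GFP, by 36.5 to 0.207 TPM in Terf1 F/F +GFP and by 0.450 to 0.0900 TPM in RTEL1 C1252A/C1255A +GFP, while in Rtel1 F/F +Cre it was below Agtr1a (0.0567 against 0.207 TPM).

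**Figure D4:**
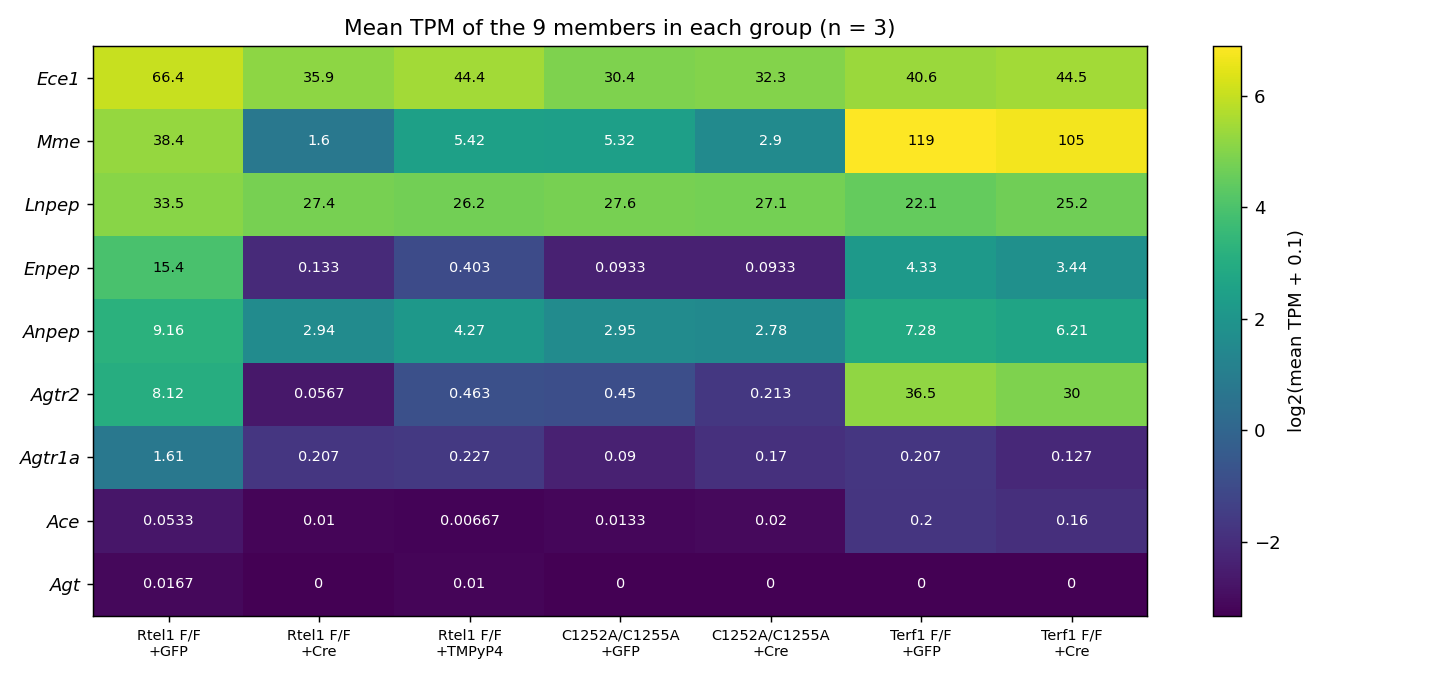
Mean TPM (n = 3) of the 9 members in the 7 groups, printed in each cell and colored on a log2(TPM + 0.1) scale. Mme is at 119 and 105 TPM and Agtr2 at 36.5 and 30.0 TPM in the Terf1 F/F groups, while Ece1 and Lnpep are above 20 TPM in all 7 groups.

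In the RTEL1 C1252A/C1255A line Mme was lower with Cre and passed the main test, but not a fit blocked on replicate number. The members were chosen by their levels in other libraries, but with earlier results of these data known, so the choice may not be fully independent of this line. The filter and the estimates of spread behind this test came from all 21 libraries, the Rtel1 F/F ones included. Of 8 members, the other 7 did not pass, and 1.09% of all genes passed (0.569% reduced and 0.525% increased). The difference from the Cre effect in Rtel1 F/F cells was not tested. The +GFP libraries had 17.2, 18 and 19.1 CPM of Mme and the +Cre libraries 9.15, 11 and 9.39, with no overlap and a log2 fold change of -0.88 ± 0.15 (SE, adjusted p = 0.00215, edgeR). Same-numbered libraries of this line deviated together, and the adjusted p was 0.0143 in a fit blocked on replicate number, above the 0.01 threshold. It was also above the threshold without +Cre replicate 1 (0.0122), +Cre replicate 3 (0.0191) or +GFP replicate 3 (0.0138), and when the 6 libraries of this line were fitted alone (0.0839), where edgeR called 0 genes in all, with 1256 at an unadjusted p under 0.05. DESeq2 gave 4.53e-06, and the log2 fold change stayed between -0.98 and -0.83 throughout.

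Agtr2 was also lower in all 3 Cre libraries of this line than in its GFP libraries, as 7.15% of all genes were (9.04% were higher in all 3), with a log2 fold change of -1.06 ± 0.33 (SE) that did not pass (edgeR adjusted p = 0.0905, and 0.0408 to 0.314 over the alternatives). The +Cre and +GFP sums were 47 and 93 counts. The remaining members overlapped between the viruses. Anpep, Lnpep and Ece1, whose counts were high enough to show small changes, had log2 fold changes of -0.08 ± 0.13, -0.02 ± 0.10 and 0.09 ± 0.13 (± SE). Enpep, Agtr1a and Ace were at or near the limit of detection, where depth limited what could be seen. Their depth-adjusted ratios of +GFP to +Cre were 0.952 (exact 95% interval 0.544 to 1.66), 0.547 (0.273 to 1.05) and 0.604 (0.130 to 2.38), with counting error only. The fibroblast sum was 4837 to 7868 CPM with GFP and 4023 to 6732 CPM with Cre, overlapping. The smooth muscle sum was 1371 to 1507 CPM with GFP and 1171 to 1228 CPM with Cre, without overlap. Within it, Acta2 averaged 820 and 574 CPM without overlap, and Tagln 573 and 587 CPM with overlap. The part of this sum was not tested.

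In Terf1 F/F cells, where Terf1 itself was lost, no member passed the test by edgeR or DESeq2, 1 (Lnpep) had an unadjusted p under 0.05 in edgeR, and 3.42% of all genes passed (0.765% reduced and 2.65% increased). Agtr2 gave -0.26 ± 0.19, Enpep -0.30 ± 0.39, Mme -0.15 ± 0.14 and Anpep -0.21 ± 0.13 on the log2 scale (± SE), with adjusted p from 0.469 to 0.797 in edgeR. Anpep was lower in all 3 Cre libraries (10.9, 9.81 and 10.7 against 11.8, 12 and 12.3 CPM) and Lnpep higher in all 3 (68.7, 65.9 and 61.9 against 59.4, 52.2 and 57.3 CPM; log2 0.22 ± 0.10, edgeR adjusted p = 0.258), as 13.8% and 13.1% of all genes were. The Mme and Agtr2 levels overlapped between the viruses, replicate 3 of +Cre being the lowest for both.

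When the Cre effect in Terf1 F/F cells was tested against that in the RTEL1 C1252A/C1255A line, no member passed by edgeR or DESeq2, while 0.620% of all genes did (0.547% with a higher and 0.0729% with a lower value in Terf1 F/F cells). In edgeR, 3 members (Agtr2, Agtr1a and Mme) had an unadjusted p under 0.05. The difference was 0.73 ± 0.20 for Mme (SE, adjusted p = 0.0844), 0.80 ± 0.38 for Agtr2 (0.470) and -1.53 ± 0.67 for Agtr1a (0.402). These tests do not show that Cre acted alike on the members in both lines.

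With the control virus alone, Agtr2, Enpep, Mme and Anpep were higher and Lnpep was lower in Terf1 F/F cells than in the RTEL1 C1252A/C1255A line. These 5 members passed the test, in a comparison in which 58.5% of all genes passed (31.9% higher and 26.6% lower in Terf1 F/F cells). They had no overlap between the groups, as 38.2% (higher) and 32.4% (lower) of all genes did. Agtr2 was higher by 6.10 ± 0.25 on the log2 scale (68.8-fold; adjusted p = 3.84e-13, edgeR), Enpep by 5.36 ± 0.57 (2.84e-07), Mme by 4.25 ± 0.16 (9.57e-14) and Anpep by 1.08 ± 0.13 (7.90e-07; all ± SE). Ace is left out of this count, because it passed the filter on low counts only through the Terf1 F/F libraries, and its +GFP sums were 57 counts in Terf1 F/F cells and 4 in the other line. Lnpep was lower, at -0.55 ± 0.10 (SE, adjusted p = 8.98e-05, edgeR). Agtr1a and Ece1 did not pass, at 0.94 ± 0.48 (0.0935) and 0.19 ± 0.13 (0.205). The fibroblast sum was 14103 to 20489 CPM in Terf1 F/F +GFP, above its range in the RTEL1 C1252A/C1255A line, as was the smooth muscle sum (2941 to 3179 against 1371 to 1507 CPM with GFP), and their part was not tested. The origin of the line, the floxed gene and the transduced vector all differ between these groups and cannot be told apart.

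The rest of the pathway was followed in 5 lists of 65 other genes, of which 46 were tested. In Rtel1 F/F +Cre, 16 were reduced and 5 increased, with a median log2 fold change of -0.25 against -0.03 over all genes tested, of which 2887 were reduced and 3015 increased (43.0% together). With TMPyP4, 11 were reduced and 5 increased (median -0.23 against -0.01, with 1836 and 2278 of all genes, 30.0% together). Both comparisons share the same 3 +GFP libraries, so calls of a gene in both are not independent of each other. Over both directions together, the shares of the lists lay near those of all genes. By direction they differed: most called list genes were reduced, whereas more of all genes were increased than reduced. The lists were chosen with earlier results of these data known, so nothing is read from this difference. The TMPyP4 count of 16 became 9 without +GFP replicate 2, 10 without +GFP replicate 3 and 9 without +TMPyP4 replicate 2. In the RTEL1 C1252A/C1255A line none of the 46 passed by edgeR or DESeq2, with 10 at an unadjusted p under 0.05 in edgeR. There 1.09% of all genes passed by edgeR. In Terf1 F/F cells 1 passed by edgeR, where 3.42% of all genes did. With such low shares over all genes, nothing is read from these counts.

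**Figure D5:**
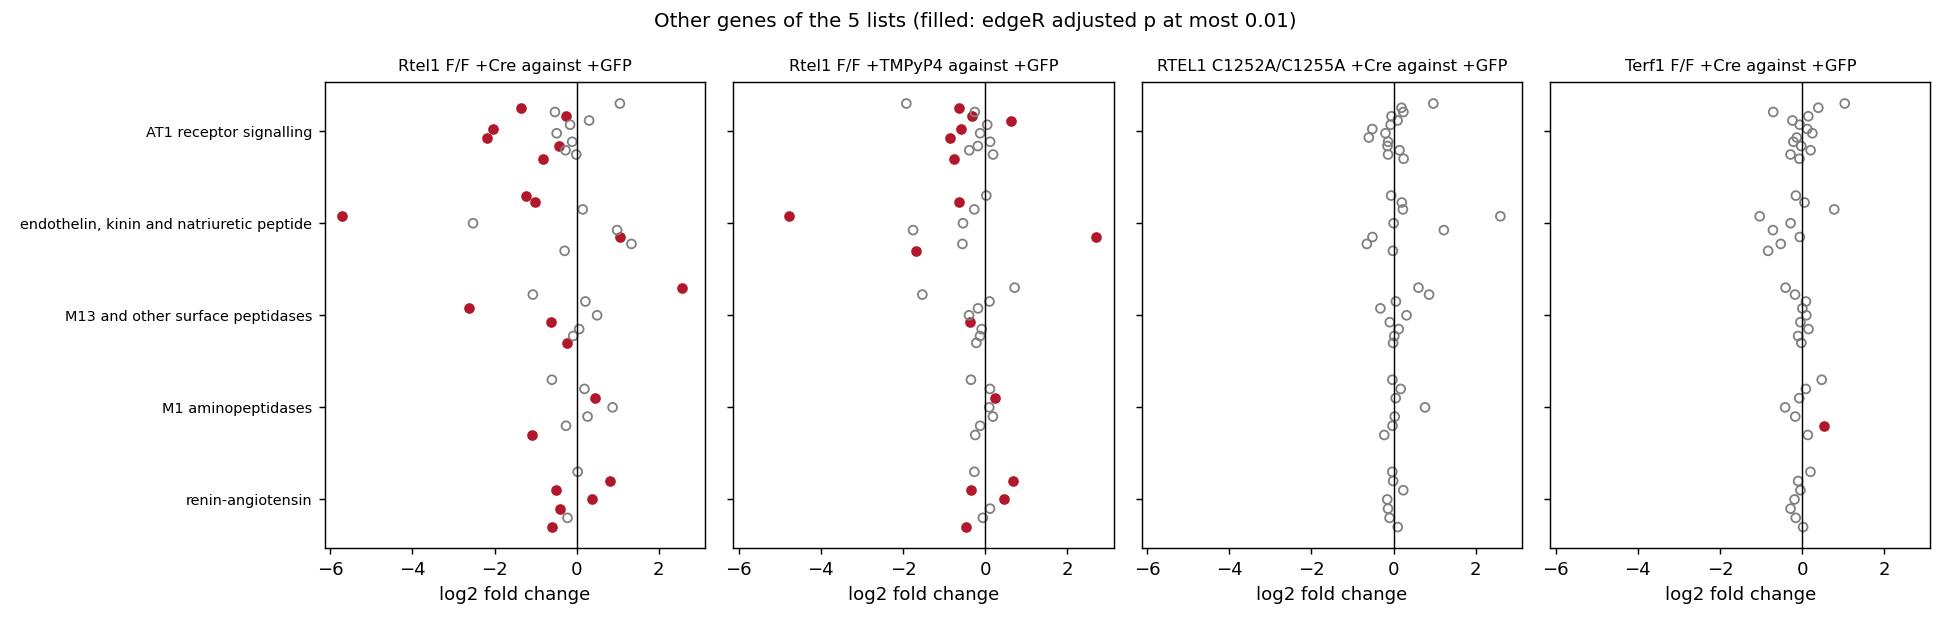
Log2 fold change of the 46 tested genes of 5 lists in 4 comparisons with the +GFP group of each line, filled where the edgeR adjusted p was at most 0.01. The filled points number 21 for Rtel1 F/F +Cre, 16 for +TMPyP4, 0 for RTEL1 C1252A/C1255A +Cre and 1 for Terf1 F/F +Cre.

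Of 17 further genes of the renin-angiotensin system, 7 were tested and 5 had no count in any library, Mas1 (the receptor of a shorter angiotensin) and Ren2 among them. Ren1 had 2 counts over the series. Agtrap, whose product binds the AT1 receptor and promotes its internalization, fell from 17.0 to 11.2 CPM in Rtel1 F/F +Cre (log2 -0.60 ± 0.13 SE, edgeR adjusted p = 0.000623) and to 12.4 CPM with TMPyP4 (-0.46 ± 0.13, 0.00774). Prcp, a lysosomal carboxypeptidase that removes the last residue of angiotensin II, fell from 41.9 to 29.5 CPM with Cre (-0.50 ± 0.06, 9.72e-07). Of the soluble endopeptidases, Prep rose from 121 to 212 CPM with Cre (0.81 ± 0.09, 8.12e-07) and to 194 CPM with TMPyP4 (0.68 ± 0.09, 1.46e-05), and Nln from 100 to 136 CPM with TMPyP4 (0.45 ± 0.06, 1.50e-05). Thop1, outside the naming rule, was at 68.5 CPM in +GFP, 69.7 in +Cre and 57.1 in +TMPyP4. Without +GFP replicate 2 or 3, or any single TMPyP4 library, Agtrap did not pass with TMPyP4 (adjusted p up to 0.0472).

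Among 8 other M1 aminopeptidases, 7 were tested, and the direction was mixed. 2010111I01Rik (aminopeptidase O, Aopep) fell from 113 to 53.4 CPM in Rtel1 F/F +Cre (-1.09 ± 0.10 SE, edgeR adjusted p = 8.42e-08), while Npepps, a cytosolic aminopeptidase, rose from 128 to 174 CPM (0.44 ± 0.06, 7.16e-06) and to 151 CPM with TMPyP4 (0.23 ± 0.06, 0.00454). The TMPyP4 call of Npepps was lost in 7 of 14 fits, among them those without +GFP replicate 2 or 3 or TMPyP4 replicate 2 or 3 (adjusted p up to 0.0983). Erap1, which trims peptides in the endoplasmic reticulum, was the list gene that passed in Terf1 F/F cells, rising from 72.1 to 104 CPM (0.54 ± 0.10, 0.00262). It did not pass in 5 of 14 fits, those without Terf1 F/F +Cre replicate 1 or 2 or +GFP replicate 1 or 2 and the fit of that line alone (adjusted p up to 0.0486).

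The 12 other surface peptidases, 9 of them tested, held 3 reduced genes and 1 increased gene in Rtel1 F/F +Cre. There 43.0% of all genes passed, so the count over both directions was close to that background. Phex, a relative of Mme and Ece1 that acts in phosphate handling, rose from 0.569 to 3.33 CPM (2.56 ± 0.30 SE, edgeR adjusted p = 1.17e-06), opposite to Mme. Cpe, a carboxypeptidase of secretory granules, fell from 561 to 364 CPM (-0.62 ± 0.09, 2.14e-05) and to 431 CPM with TMPyP4 (-0.38 ± 0.09, 0.00330; not passed without +GFP replicate 2 or 3 or any single TMPyP4 library, adjusted p up to 0.0350). Adam10, a sheddase, fell from 217 to 184 CPM (-0.24 ± 0.06, 0.00410), a call lost in 7 of 14 fits, among them those without +Cre replicate 1 or 3 or +GFP replicate 2 or 3 (adjusted p up to 0.0861). The third reduced gene, Dpp4, outside the naming rule, was at 0.118 and 0.0160 CPM, near the limit of detection.

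Of 14 genes for endothelin, kinin and natriuretic peptides, 9 were tested. Edn1, which encodes the precursor that Ece1 cuts, rose from 5.64 CPM (4.91 to 6.70) in Rtel1 F/F +GFP to 11.6 CPM (9.25 to 13.3) with Cre (1.05 ± 0.17 SE, edgeR adjusted p = 4.93e-05) and to 36.8 CPM (34.5 to 40.3) with TMPyP4 (2.71 ± 0.17, 4.97e-09). The 3 groups did not overlap. In the RTEL1 C1252A/C1255A line Edn1 was at 22.6 and 15.8 CPM with GFP and Cre. The endothelin receptor genes Ednra and Ednrb were at most 0.0445 CPM in the Rtel1 lines, and at 13.1 and 4.03 CPM in Terf1 F/F +GFP. Npr2, the receptor of C-type natriuretic peptide, fell from 53.8 to 26.5 CPM with Cre (-1.02 ± 0.08, 1.70e-08) and to 34.9 CPM with TMPyP4 (-0.62 ± 0.08, 1.20e-05), and the clearance receptor gene Npr3 from 12.4 to 5.23 CPM with Cre (-1.24 ± 0.14, 5.51e-07). Kng1, the kininogen gene, outside the naming rule, was at 1.02 CPM in +GFP and 0.0160 and 0.0320 CPM in the treated groups.

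All 14 genes for AT1 receptor signalling were tested, and 6 were reduced and 0 increased with Cre, against 5 and 1 with TMPyP4. Of all genes, 43.0% and 30.0% passed in these comparisons, and the counts of this list over both directions were not far from those shares. By direction they differed, as 2887 of all genes were reduced and 3015 increased with Cre, and 1836 and 2278 with TMPyP4. Plcb1, a phospholipase C that acts downstream of Gq, fell from 16.3 to 3.96 CPM with Cre (-2.04 ± 0.14 SE, edgeR adjusted p = 1.91e-09). Nfatc4, a transcription factor activated by calcineurin, fell from 61.6 to 13.5 CPM with Cre (-2.19 ± 0.23, 7.09e-07) and to 33.8 CPM with TMPyP4 (-0.87 ± 0.22, 0.00491). Rgs4, which shortens Gq signalling, fell from 4.71 to 1.84 CPM (-1.36 ± 0.16, 1.91e-06) and to 3.01 CPM with TMPyP4 (-0.64 ± 0.16, 0.00329). Arrb1, a receptor arrestin, fell from 54.3 to 32.3 CPM with TMPyP4 (-0.75 ± 0.11, 5.33e-05). The TMPyP4 calls of Nfatc4 and Rgs4 were lost without +GFP replicate 2 or 3 or TMPyP4 replicate 2, that of Nfatc4 also without TMPyP4 replicate 3, and that of Rgs4 also without TMPyP4 replicate 1 and in the fit of the compared libraries alone (adjusted p up to 0.0277 and 0.0330).

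When 11839 genes averaging 1 CPM or more were compared, the pattern most like that of Agtr2 over the 7 group means of log2 CPM was that of Mme (Pearson r = 0.9995), followed by Prr5l (0.9955), Pcdhga3 (0.9944), Fat4 (0.9935) and Plagl1 (0.9932). Their ranges differed: Fat4, an atypical cadherin gene, ran from 3.88 CPM in Rtel1 F/F +Cre to 98.8 CPM in Terf1 F/F +Cre, and Prr5l from 1.64 to 5.78 CPM. For Enpep the most alike were Itih5 (0.9970), Kazald1 (0.9967), Ephb6 (0.9967), Khk (0.9961) and Tnfrsf1a (0.9960). Itih5 was at 6.92 CPM in Rtel1 F/F +GFP, 3.27 CPM in Terf1 F/F +GFP and 0.523 to 1.28 CPM in the 4 other groups of the Rtel1 lines. Agtr2 and Enpep had r = 0.879 with each other. Enpep was highest in Rtel1 F/F +GFP and Agtr2 in Terf1 F/F +GFP. The low groups also differed: Agtr2 was lowest in Rtel1 F/F +Cre, where Enpep overlapped the RTEL1 C1252A/C1255A +GFP libraries. With 7 points that share 3 lines, such values describe likeness and carry no test.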

How the data were processed

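Poly(A) RNA of 21 MEF libraries was sequenced with a strand-specific, single-end protocol. The authors used cutadapt 1.9.1 for trimming, STAR 2.5.2a for alignment and RSEM 1.3.0 for gene counts on RefSeq genes of mm10, and they deposited expected counts, which were all whole numbers, and TPM for each library. RSEM shares reads between similar genes, so close paralogs are uncertain. From the counts, edgeR 4.0.16 (R 4.3.3) was run on all 21 libraries with 1 coefficient per group, TMM scaling, filterByExpr, the robust quasi-likelihood test and Benjamini-Hochberg adjustment over 13719 genes, with a threshold of 0.01 as in the study. log2 CPM for likeness used a prior count of 2. The script was tested on simulated data. Groups came from the sample labels.

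Members and lists were chosen with earlier results of these data known. Named were all members, in each list every gene passing in the RTEL1 C1252A/C1255A or Terf1 F/F line, the 3 largest changes (mean of at least 1 CPM) for Rtel1 F/F +Cre and for +TMPyP4, and the 5 genes most like Agtr2 and Enpep. Tried in turn were DESeq2 1.42.0, edgeR with DESeq2 size factors, no filter, at least 10 counts in every library, the compared libraries alone, a replicate block, a threshold of 0.05 and leaving out each library. Same-numbered libraries deviated together in the RTEL1 C1252A/C1255A line (r = 0.864, 0.839 and 0.424 over 11840 genes), which was taken as pairing. In Rtel1 F/F cells the +Cre and +TMPyP4 libraries also did so (0.724, 0.758 and 0.409). The +GFP libraries paired neither with +Cre (-0.0172, 0.0580 and 0.131) nor with +TMPyP4 (0.0242, 0.0502 and 0.133). Markers of 6 cell types were summed per group: smooth muscle genes gave 751 to 3599 CPM, endothelial genes 0.245 to 4.45, leukocyte genes 0.198 to 1.61, epithelial genes 0.819 to 3.43 and neural genes 31.0 to 125 CPM. Promoters came from RefSeq (8 of 9 members) and gene models from GENCODE M21, both on GRCm38, the same assembly as mm10.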

Additional observations from a re-analysis of the deposited data

How the results depend on the processing

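Depth limits Agt, Ace, Agtr1a and, in the RTEL1 C1252A/C1255A line, Enpep, and 3 libraries per group limit every test. Requiring 10 counts in every library removes members, and the median log2 difference of those left was -1.03 for Rtel1 F/F +Cre and -0.67 for +TMPyP4, with 3 members passing between the lines in place of 6 (Ace included); with the compared libraries alone the Cre median was -2.72. In the RTEL1 C1252A/C1255A line DESeq2 called 335 genes, a threshold of 0.05 gave 416 genes and 2 list genes, and the compared libraries alone gave 0 genes and 0 members (1256 genes at an unadjusted p under 0.05), against 150 genes and 1 member with all libraries (1950 genes). The replicate block left 0 members called there, and 3 list genes in Terf1 F/F cells, where numbers did not pair the libraries (r = 0.552, 0.358 and -0.0998); it changed no other member call in the Cre comparisons of these 2 lines or in their difference, and between the lines, which the block numbers do not cross, it was not fitted. In Terf1 F/F cells the list count of 1 was 4 with DESeq2 (Erap1, Ednra, Arrb2 and Rgs2), 2 with no filter and 5 at 0.05, and 872 genes in place of 469 passed at 0.05. The difference between the Cre effects gave 189 genes with DESeq2, 11 with the compared libraries alone and 195 at 0.05, in place of 85. The causes were not tested.

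Leaving out 1 library at a time gave medians of the members from -2.85 to -2.07 (+Cre) and from -2.73 to -2.26 (+TMPyP4); 0 to 1 members called in the RTEL1 C1252A/C1255A line; list counts of 18 to 23 (+Cre), 9 to 18 (+TMPyP4) and 0 to 1 (Terf1 F/F); and gene counts of 4697 to 5761 (+Cre), 2466 to 4110 (+TMPyP4, lowest without +GFP replicate 2), 52 to 149 (RTEL1 C1252A/C1255A, lowest without +Cre replicate 3), 282 to 377 (Terf1 F/F, lowest without +Cre replicate 1 or +GFP replicate 2), 27 to 89 (difference, lowest without Terf1 F/F +GFP replicate 2) and 7315 to 7669 (between lines). Members that had not passed changed sign in some of these fits: in the RTEL1 C1252A/C1255A line Enpep ranged from -0.31 to 0.41, Ece1 from -0.0570 to 0.197, Anpep from -0.195 to 0.0197 and Lnpep from -0.0665 to 0.0387; in Terf1 F/F cells Ace from -0.599 to 0.0417 and Mme from -0.243 to 0.00595; and in the difference Enpep from -0.720 to 0.00199 and Ece1 from -0.0468 to 0.213.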
